A study of Mus musculus with 6 samples.

Results

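The islet hormone genes Ins2, Iapp, Gcg, Sst, Ppy and Pyy were followed across 6 Affymetrix arrays of mouse pancreatic islets. The members are the genes themselves, and every probe set that the platform annotation assigns to one of these symbols alone was taken. That gave 9 of the 45101 probe sets on an array, 4 of them for Iapp and 1 for each other gene. All 9 passed the filter on dim probe sets, among 27022 that were tested. Islets were taken at postnatal day 30 from male wild-type OF-1 mice, an outbred stock. Vehicle offspring were born to dams that received the carrier alone, BPA10 offspring to dams that received bisphenol-A, an estrogenic compound used to make plastics, at 10 µg/kg/day, and BPA100 offspring to dams that received 100 µg/kg/day, in each case over gestation days 9 to 16. Each group has 2 arrays. The vehicle arrays held RNA of 5 mice (replicate 1) and of 1 mouse (replicate 2), the BPA10 arrays RNA of 1 mouse (replicate 1) and of 2 mice (replicate 2), and both BPA100 arrays RNA of 1 mouse each. The labels name no litter, so p-values measure the spread between arrays only.

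Islets hold several endocrine cell types, each known by its hormone. Beta cells make insulin, which lowers blood glucose, and co-secrete islet amyloid polypeptide. Alpha cells make glucagon, which raises blood glucose, and delta cells make somatostatin, which restrains both. PP cells make pancreatic polypeptide. Peptide YY is a relative of pancreatic polypeptide that is best known from endocrine cells of the gut and is also made in islets. All are cut from larger precursors inside secretory granules. In whole islets, fewer cells of a type and less RNA per cell cannot be told apart.

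The stretches of 100 bases before the transcription start of 5 members are shown as the sequence next to the start (RefSeq, GRCm38.p6, 5′ to 3′ on the gene's strand). Control of the genes through these stretches was not tested. Capitals mark every match on either strand to TATAA (the core of a TATA box), TAAT (the core recognised by homeodomain factors), CANNTG (the E-box of basic helix-loop-helix factors) or TGACGTCA (the cyclic AMP response element). Neighbouring matches can overlap and then share capitals. The gene is followed by its place, with Iapp at chr6:142298325-142298424 (plus strand), Gcg at chr2:62483654-62483753 (minus), Sst at chr16:23890845-23890944 (minus), Ppy at chr11:102101320-102101419 (minus) and Pyy at chr11:102107833-102107932 (minus).
Iapp: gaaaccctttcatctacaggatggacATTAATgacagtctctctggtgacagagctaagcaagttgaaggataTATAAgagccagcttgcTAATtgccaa
Gcg: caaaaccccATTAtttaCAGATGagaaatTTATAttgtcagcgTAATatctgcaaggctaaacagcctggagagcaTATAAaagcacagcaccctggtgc
Sst: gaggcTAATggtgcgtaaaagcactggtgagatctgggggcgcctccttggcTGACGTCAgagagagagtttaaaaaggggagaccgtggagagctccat
Ppy: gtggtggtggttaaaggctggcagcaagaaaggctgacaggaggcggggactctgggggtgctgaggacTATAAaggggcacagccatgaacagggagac
Pyy: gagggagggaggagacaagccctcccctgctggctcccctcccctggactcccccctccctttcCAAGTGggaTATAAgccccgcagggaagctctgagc
TATAA was found in 4 of these 5 stretches, and in 10.2% of the 32851 stretches of the same length before all annotated starts. Counted back from the last base before the start as -1, the nearest match lay at -27 to -23 in Iapp, -24 to -20 in Gcg, -31 to -27 in Ppy and -27 to -23 in Pyy. Sst held none of these letters but carried TGACGTCA at -48 to -41, which 1.15% of all stretches hold. TAAT was present in Iapp, Gcg and Sst (27.3% of all stretches) and CANNTG in Gcg and Pyy (34.4%). Ppy and Pyy are neighbours on chromosome 11, with 0 annotated genes between them.

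The deposited values are linear MAS5 signals, scaled so that each array has the same trimmed mean of 150. Differences are those of group means of log2(signal + 1), from limma fitted to all 6 arrays and all 27022 tested probe sets, with a moderated standard error (SE). Adjusted p-values are Benjamini-Hochberg values over all tested probe sets, with a threshold of 0.05. The median signal of an array was 33 to 40, and its highest signal 11218 to 15158. Signals of different probe sets are not compared as RNA levels. With the exception of Ins2, each gene is represented by a probe set that ranked among the 56 brightest of every array, close to the upper end of the signal range. Ins2 ranked between 268 and 615. Genes that define beta, alpha and delta cells, other than the hormones, were measured on every array (8, 5 and 5 tested genes, lowest signal 38).

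Ins2, one of the mouse insulin genes, measured 3546 and 3552 on the vehicle arrays, 4873 and 4797 on the BPA10 arrays, and 4139 and 2680 on the BPA100 arrays. The BPA10 arrays lay together above all arrays of the other groups, while the BPA100 arrays fell on either side of vehicle. Ins2 differed by 0.45 ± 0.19 between BPA10 and vehicle (SE, n = 2 arrays each; 1.36-fold, 95% interval 0.02 to 0.88, limma adjusted p = 0.688). Between BPA100 and vehicle it differed by -0.09 ± 0.19 (interval -0.52 to 0.34, adjusted p = 1). Its order was BPA10, vehicle, BPA100, and neither neighbouring step passed. This probe set carries the suffix x, given where some probes can bind other transcripts, so signal from the closely related gene Ins1 cannot be told apart from that of Ins2.

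Iapp encodes islet amyloid polypeptide, or amylin, which beta cells release together with insulin. Its brightest probe set measured 9446 and 9386 on the vehicle arrays, 12175 and 11006 on the BPA10 arrays, and 12296 and 9530 on the BPA100 arrays. Every treated array was above both vehicle arrays, though BPA100 replicate 2 only narrowly. The difference was 0.30 ± 0.15 for BPA10 against vehicle (1.23-fold, interval -0.03 to 0.63, adjusted p = 0.732) and 0.20 ± 0.15 for BPA100 against vehicle (1.15-fold, adjusted p = 1). BPA10, BPA100 and vehicle followed each other in that order with no step passing.

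The other 3 Iapp probe sets did not follow the brightest one. Probe set 1423509_a_at measured 6754 and 3505 on the vehicle arrays, 6860 and 2958 on the BPA10 arrays, and 4755 and 7101 on the BPA100 arrays. Probe set 1437323_a_at had the same 3 highest arrays and a smaller range, with 8347 and 5790 in vehicle, 9161 and 6487 in BPA10, and 7703 and 8877 in BPA100. Probe set 1456004_x_at carries the suffix x, as that of Ins2 does, so some of its probes may bind other transcripts. It measured 3225 and 672 in vehicle, 960 and 730 in BPA10, and 919 and 2223 in BPA100. In these 3 probe sets the vehicle arrays alone stood 0.95, 0.53 and 2.26 apart on the log2 scale, more than any pair of group means, against 0.01 for the brightest probe set. The BPA10 difference from vehicle was -0.11 ± 0.42, 0.15 ± 0.21 and -0.81 ± 0.65 in that order, so the direction for Iapp depends on the probe set. For BPA100 the values were 0.26 ± 0.42, 0.25 ± 0.21 and -0.04 ± 0.65. All adjusted p-values of these 3 probe sets were 0.837 or above.

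**Figure D1:**
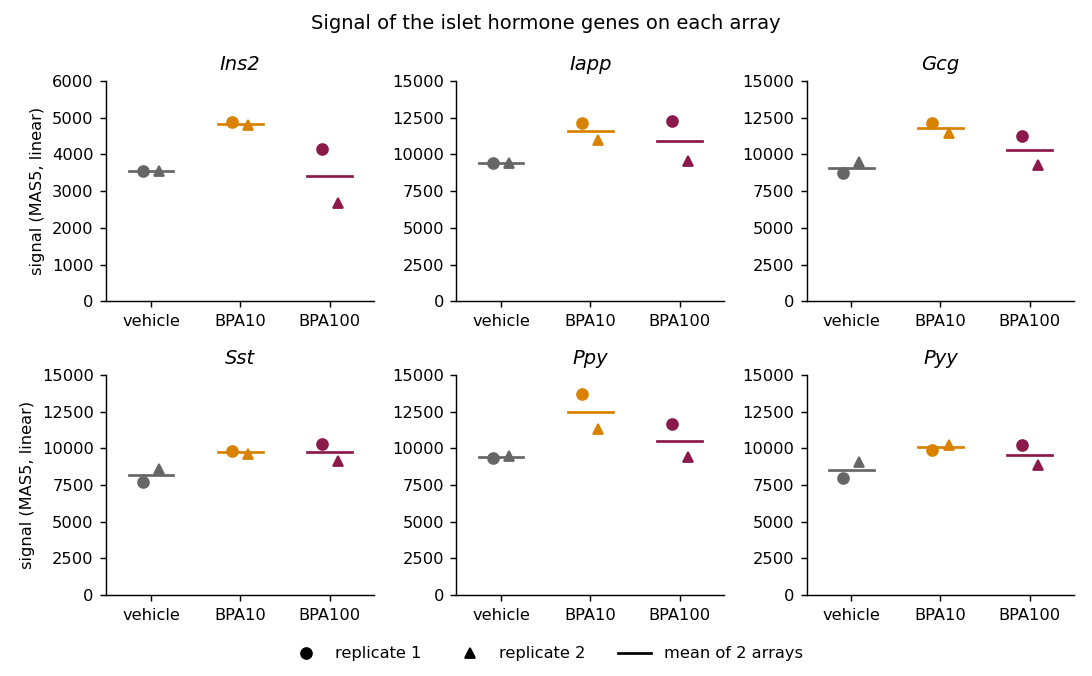
Signal (linear, y axis from 0) of the representative probe set of each hormone gene on the 6 arrays, by dose group, with circles for replicate 1, triangles for replicate 2 and a bar for the group mean. The BPA10 arrays lie above both vehicle arrays in every panel, and BPA100 replicate 2 is the lowest treated array in every panel; the Ins2 panel has a smaller y range.

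**Figure D2:**
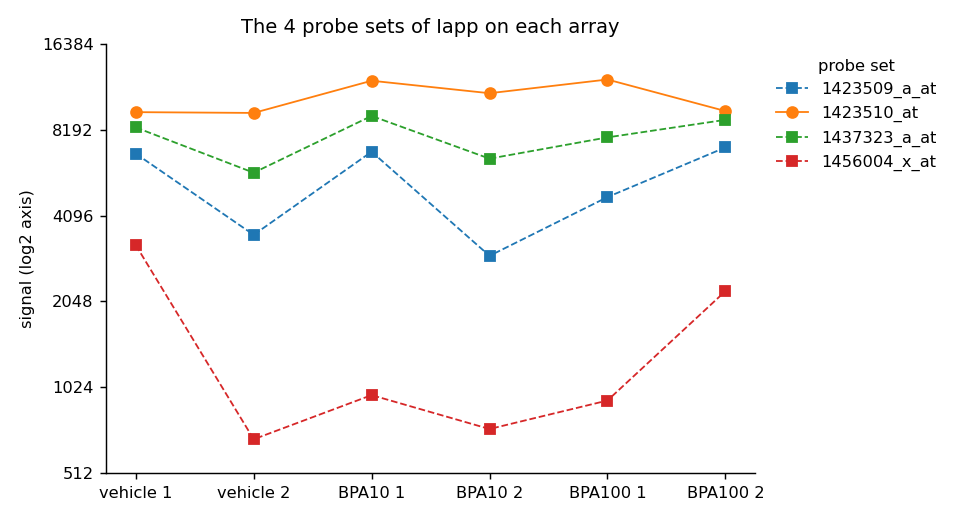
Signal of the 4 Iapp probe sets (y axis on a log2 scale) on each array, with a solid line for the brightest probe set and dashed lines for the others. The brightest probe set is nearly the same on both vehicle arrays, at 9446 and 9386, where 1456004_x_at measured 3225 and 672.

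Gcg encodes proglucagon, the precursor of glucagon in alpha cells and of the glucagon-like peptides in the gut. It measured 8754 and 9465 on the vehicle arrays, 12171 and 11487 on the BPA10 arrays, and 11285 and 9308 on the BPA100 arrays. Both BPA10 arrays exceeded vehicle, whereas BPA100 replicate 2 lay between the vehicle arrays. The difference from vehicle was 0.38 ± 0.13 in BPA10 (1.30-fold, interval 0.07 to 0.68, adjusted p = 0.663) and 0.17 ± 0.13 in BPA100 (1.13-fold, interval -0.13 to 0.47, adjusted p = 1).

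Sst encodes the precursor of somatostatin, the inhibitory hormone of delta cells. Signals were 7717 and 8594 on the vehicle arrays, 9804 and 9620 on the BPA10 arrays, and 10282 and 9148 on the BPA100 arrays. All 4 treated arrays lay above both vehicle arrays, and the treated groups overlapped. The differences from vehicle were nearly equal at the 2 doses, 0.25 ± 0.12 each (1.19-fold, interval -0.03 to 0.53 at each dose, adjusted p = 0.729 for BPA10 and 1 for BPA100).

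Ppy encodes the precursor of pancreatic polypeptide, which slows exocrine secretion and gut movement. It measured 9321 and 9441 on the vehicle arrays, 13666 and 11318 on the BPA10 arrays, and 11628 and 9414 on the BPA100 arrays. The vehicle arrays were almost equal, and BPA100 replicate 2 fell between them. Ppy differed from vehicle by 0.41 ± 0.15 in BPA10 (1.33-fold, interval 0.07 to 0.74, adjusted p = 0.671) and by 0.16 ± 0.15 in BPA100 (1.11-fold, adjusted p = 1).

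Pyy encodes the precursor of peptide YY, which acts on receptors of the neuropeptide Y family. Signals were 7972 and 9047 in vehicle, 9878 and 10243 in BPA10, and 10195 and 8880 in BPA100. The BPA10 arrays were above vehicle and BPA100 replicate 2 was below vehicle replicate 2. Differences from vehicle were 0.24 ± 0.13 for BPA10 (1.18-fold, interval -0.05 to 0.54, adjusted p = 0.753) and 0.16 ± 0.13 for BPA100 (1.12-fold, adjusted p = 1). The BPA10 difference was the smallest of the 6 genes at that dose. For Gcg, Ppy and Pyy, as for Iapp, the order of the groups was BPA10, BPA100, vehicle, with no neighbouring step passing.

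Between BPA10 and vehicle, 0 of the 6 genes passed in limma, as did 0 of all 27022 probe sets (0%, smallest adjusted p = 0.182), of which 1914 had an unadjusted p under 0.05. All 6 representative probe sets had the higher mean in BPA10, with a median difference of 0.34 against 0.0008 over all tested probe sets. In all 6 the BPA10 arrays lay above both vehicle arrays, which was so for 17.5% of all probe sets. An unadjusted p under 0.05 and a higher mean were found for 3 of the 6, Ins2, Gcg and Ppy, against 3.12% of all probe sets. This count of members ranged from 0 to 4 over the processing alternatives (closing section).

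The BPA10 arrays also lay above the vehicle arrays in the spike-in controls, labelled transcripts of bacterial genes and of the phage Cre recombinase gene that the standard procedure adds to each hybridization in a fixed amount. The brightest Cre probe set measured 9673 and 9623 on the vehicle arrays, 13880 and 11027 on the BPA10 arrays, and 11885 and 9717 on the BPA100 arrays. It thus differed by 0.36 between BPA10 and vehicle and by 0.16 between BPA100 and vehicle, and the mean of all 18 spike-in probe sets by 0.36 and 0.10. After centring each profile on its mean, Ppy and the Cre probe set differed by a root mean square of 0.03 over the 6 arrays on the log2 scale. That distance was 0.07 for Iapp, 0.08 for Gcg, 0.13 for Sst, 0.14 for Pyy and 0.19 for Ins2. Less the Cre difference, the BPA10 differences were 0.09 for Ins2, 0.05 for Ppy, 0.02 for Gcg, -0.06 for Iapp, -0.10 for Sst and -0.11 for Pyy. Set against its own vehicle mean, the median of the brightest 1% of other probe sets (450) was -0.01 and 0.01 in vehicle, 0.17 and 0.14 in BPA10, and 0.18 and 0.02 in BPA100. The part of these array-wide differences in the hormone values was not tested.

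**Figure D3:**
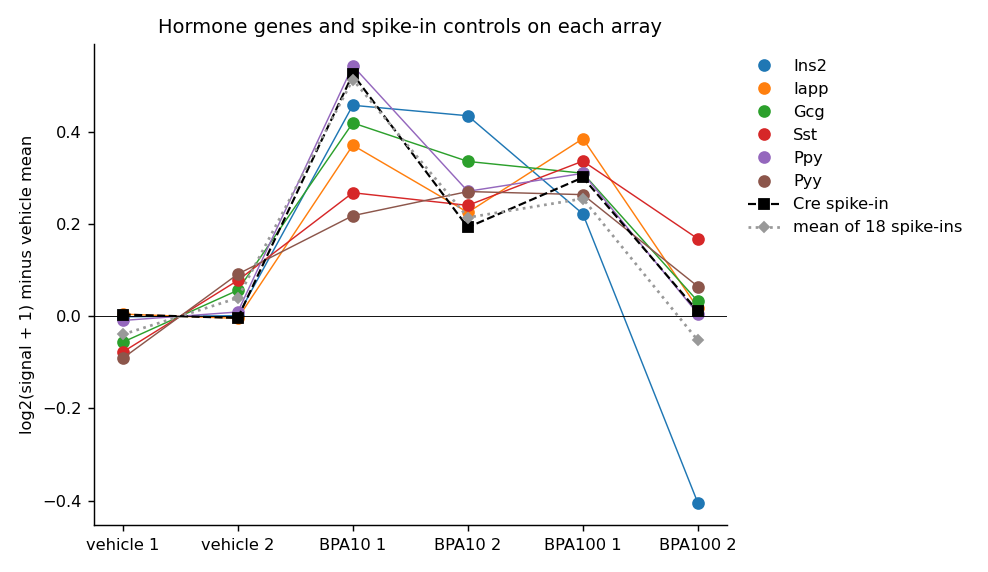
log2(signal + 1) of each hormone gene minus its vehicle mean on the 6 arrays, with the brightest Cre spike-in (black squares) and the mean of the 18 spike-in probe sets (grey diamonds). The Cre spike-in stands at 0.52 and 0.19 on the BPA10 arrays, 0.30 and 0.01 on the BPA100 arrays, and Ins2 stands at -0.405 on BPA100 replicate 2.

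The direction of the BPA10 difference depended on the scaling for 5 of the 6 genes. After median centring, all 6 kept a higher mean in BPA10 (median 0.36), and the BPA10 arrays lay above vehicle for 5, against 18.6% of all probe sets. Quantile normalization gives all arrays the same distribution, so each value follows from its rank on the array. It thus removes a shift shared by the brightest probe sets, among which the 5 genes other than Ins2 lie. After it, the BPA10 difference was -0.10 for Iapp, -0.02 for Gcg, -0.13 for Sst, -0.01 for Ppy and -0.13 for Pyy. That of Ins2 was 0.30 in place of 0.45. The BPA10 arrays then lay above vehicle for 1 member and below it for 1, against 18.2% and 19.6% of all probe sets. With arrays scaled to the spike-in controls, a setting chosen after seeing the data, the median over the members was -0.03, with 0.08 for Ins2, and Iapp, Sst and Pyy were below 0. The BPA10 arrays lay above vehicle for 0 members and below it for 0, against 2.29% and 56.6% of all probe sets. That scaling moves all probe sets of an array alike, so it shifted the median of all tested probe sets to -0.36 and left the members' distance from that median as it was.

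**Figure D4:**
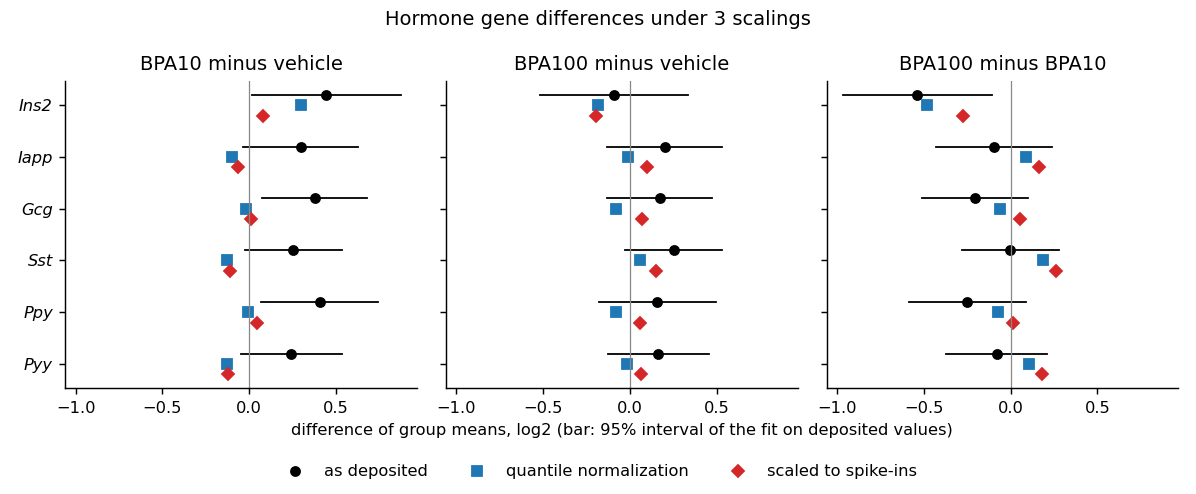
Difference of group means (log2, x axis) for the 6 genes in 3 comparisons, from deposited values (black, with the 95% interval), after quantile normalization (blue) and scaled to the spike-in controls (red). The BPA10 minus vehicle difference of Ins2 is 0.45, 0.30 and 0.08 in these 3 scalings, and its BPA100 minus BPA10 difference is -0.54, -0.48 and -0.28.

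Other cells and RNA ends also differed between the arrays. Of the genes that mark acinar cells, which secrete digestive enzymes and surround the islets, 22 of 22 tested had the higher mean in BPA10 than in vehicle. Relative to the vehicle mean, this list stood at 0.57 and -0.57 on the vehicle arrays, 1.24 and 1.02 on the BPA10 arrays, and 1.02 and 0.02 on the BPA100 arrays. Its summed signal was 73432 to 137312 in vehicle, 172788 to 192584 in BPA10, and 101220 to 178556 in BPA100, and 0 of its genes were at 0. Its part in the hormone values was not tested. The summed stellate-cell and fibroblast list (15 genes, 0 at 0) ranged from 9301 to 10808 in vehicle, from 9860 to 15690 in BPA10, and from 6524 to 8933 in BPA100. The macrophage list (10 genes, 0 at 0) ranged from 1375 to 4334 in vehicle, from 1741 to 2692 in BPA10 and from 1307 to 1429 in BPA100. The ratio of the 3′ to the 5′ Gapdh probe set was 0.77 and 0.657 in vehicle, 0.841 and 0.887 in BPA10, and 0.771 and 0.689 in BPA100, and that of Actb lay between 1.62 and 1.72 on all arrays. The part of these values was not tested either.

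Between BPA100 and vehicle, 0 of the 6 genes and 0% of all probe sets passed in limma (1075 with an unadjusted p under 0.05). Of the 6, 5 had the higher mean in BPA100 and Ins2 the lower one, with a median difference of 0.17 against -0.0047 over all probe sets. Both BPA100 arrays lay above both vehicle arrays for 2 members, Iapp and Sst, and below them for 0. The shares over all probe sets were 16.1% above and 15.8% below. The values depended on which BPA100 array was kept: the median over the members was 0.31 without BPA100 replicate 2 and 0.02 without BPA100 replicate 1, and Ins2 was 0.22 and -0.405 in these fits. Averaged over both doses, 0 members passed and 0% of probe sets (1537 with an unadjusted p under 0.05). The median over the members was then 0.25, and the 4 treated arrays lay above both vehicle arrays for Iapp and Sst, against 7.17% of all probe sets. In the test for any difference over the 3 groups, 0 members and 0% of probe sets passed, with unadjusted p-values from 0.0427 for Ins2 to 0.209 for Pyy (limma F test, adjusted p = 0.943 to 0.952).

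Between the doses, Ins2 had the largest difference of the 6. Its probe set alone was not close to the upper end of the signal range, and the part of this position was not tested. Ins2 was lower in BPA100 than in BPA10 by -0.54 ± 0.19 on the log2 scale (0.689 of the BPA10 level, interval -0.97 to -0.11, limma adjusted p = 0.964). Ppy differed by -0.25 ± 0.15, Gcg by -0.21 ± 0.13, Iapp by -0.10 ± 0.15, Pyy by -0.08 ± 0.13 and Sst by -0.00 ± 0.12. Both BPA100 arrays lay below both BPA10 arrays for Ins2 and Gcg, against 15% of all probe sets. Without BPA100 replicate 2 the Ins2 difference was -0.22, and without BPA100 replicate 1 it was -0.85. The median over the members was -0.15, and 0 members and 0% of probe sets passed (1283 with an unadjusted p under 0.05). These comparisons share groups, so the values for a gene are not independent of each other.

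The ratio of each gene to Ins2 within an array does not change when the whole array is multiplied by a factor. Relative to the vehicle mean, the Sst to Ins2 ratio stood at -0.08 and 0.08 on the vehicle arrays, -0.19 and -0.19 on the BPA10 arrays, and 0.11 and 0.57 on the BPA100 arrays. The Iapp ratio stood at 0.01 and -0.01 in vehicle, -0.09 and -0.21 in BPA10, and 0.16 and 0.42 in BPA100. In all 5 genes the ratio to Ins2 was higher on both BPA100 arrays than on both BPA10 arrays, by a narrow margin for Ppy (0.088 against 0.0855). The same was so for 61.3% of the 27021 other tested probe sets, since all ratios share the Ins2 signal, which was lower on both BPA100 arrays. The change between the doses was 0.54 for Sst, 0.46 for Pyy, 0.44 for Iapp, 0.33 for Gcg and 0.29 for Ppy, against a median of 0.54 over all other tested probe sets, with a spread between arrays of a group of 0.12 to 0.20 (SD). An exact 2-sided permutation test gave p = 0.3333 for each, the smallest that 2 arrays against 2 allow, and 0.417 after adjustment over the 15 ratio tests. BPA100 replicate 2, with its low Ins2 signal, had the highest ratio for each of the 5 genes. Without it the changes were 0.31 for Sst, 0.24 for Pyy, 0.31 for Iapp, 0.16 for Gcg and 0.13 for Ppy. Without BPA100 replicate 1 they were 0.51 for Gcg and 0.45 for Ppy, and without BPA10 replicate 2 that of Ppy was 0.16.

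**Figure D5:**
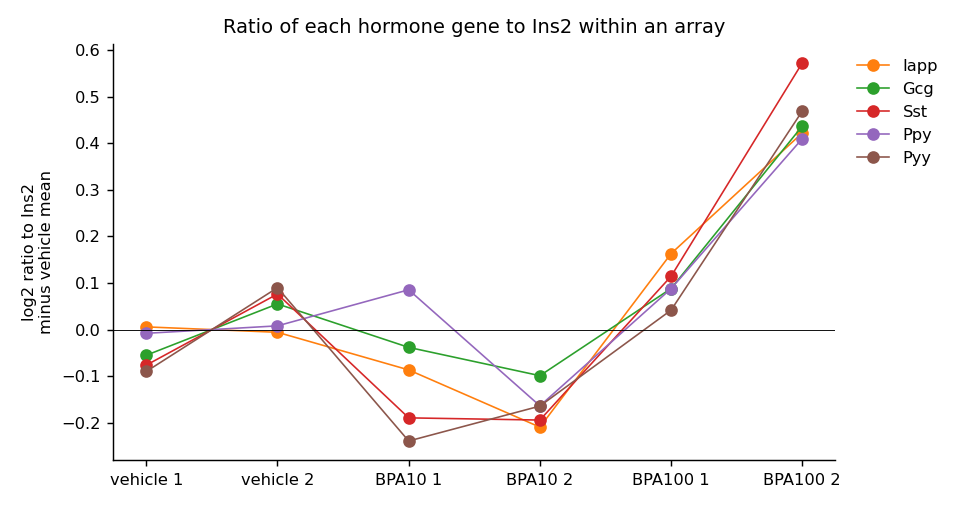
log2 ratio of each hormone gene to Ins2 within an array, minus the vehicle mean of that ratio, on the 6 arrays. BPA100 replicate 2 stands at 0.41 for Ppy to 0.57 for Sst. Both BPA100 arrays lie above both BPA10 arrays for these 5 genes, as for 61.3% of all other probe sets, whose ratios share the same Ins2 signal.

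Among the members, Sst and Pyy had the most alike profiles over the 6 arrays (root mean square difference 0.05), followed by Gcg and Ppy (0.06) and Iapp and Gcg (0.07). Ins2, the only member not close to the upper end of the signal range, was at 0.17 to 0.26 from the others. Of 22405 other probe sets with 1 named gene, 13 lay within 0.1 of Ins2, against 168 for Ppy, 271 for Gcg, 347 for Iapp, 593 for Sst and 767 for Pyy. These counts follow how flat each profile is: its distance from no change at all was 0.30 for Ins2, 0.20 for Ppy, 0.18 for Gcg, 0.17 for Iapp, 0.14 for Sst and 0.13 for Pyy. The nearest to Ins2 were Palld (0.06), an actin-associated protein gene, Ube2j1 (0.06), a ubiquitin-conjugating enzyme gene of the endoplasmic reticulum, and Tsc22d4 (0.07). Chga, the granule protein chromogranin A, was among the 3 nearest to Gcg (0.04), after Snx13 and Tut7 (both 0.03). Ttr, the transthyretin gene, abundant in alpha cells, was the nearest to Sst (0.02), followed by Dhx32 and Rrm2. Nearest to Iapp were Oma1 (0.02), Tpt1 (0.03) and the ribosomal stalk gene Rplp0 (0.04). Ppy had Eif2s2, Pgap1 and Xbp1, the secretory-pathway transcription factor gene (0.03 to 0.05), and Pyy had Cd164, Gdi2 and Rrm2 (all 0.03). These genes were picked for their likeness over 6 arrays. The least bright Iapp probe set, 1456004_x_at, looked at after its values were seen, had 0 probe sets within 0.1, and its nearest was one of Vamp3 (0.37).

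Genes that cut and pack the prohormones were compared in the same fit. Of 14 tested, 11 had the higher mean in BPA10 than in vehicle and 11 in BPA100, with medians of 0.14 and 0.12, and 0 passed in either comparison. Chga differed most upward in BPA10 (0.33 ± 0.14, 9994 and 9673 against 7679 and 7956 in vehicle), where the brightest Cre spike-in differed by 0.36. Vgf, a granule peptide precursor gene, differed most in the other direction (-0.53 ± 0.36). In BPA100 the extremes were Scg2, the secretogranin II gene (0.23 ± 0.13), and Ptprn, a granule membrane protein gene (-0.23 ± 0.17).

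Transcription factors of the hormone genes (14 tested) had 10 higher and 4 lower means in BPA10 and 9 and 5 in BPA100, with medians of 0.10 and 0.08, and 0 passed. The BPA10 extremes were the dim probe sets of Foxa1 (0.57 ± 0.90) and Pou3f4 (-1.13 ± 0.40), and the BPA100 extremes Insm1 (0.38 ± 0.16) and Pou3f4 (-0.43 ± 0.40). Beta-cell markers other than the hormones had 7 of 8 higher means in BPA10 and 6 of 8 in BPA100, with medians of 0.19 and 0.16, and 0 passed. Pdx1, which activates the insulin genes, was highest of them in BPA10. It measured 1006 and 1121 in vehicle, 1346 and 1401 in BPA10, and 1077 and 956 in BPA100, a difference from vehicle of 0.37 ± 0.13 in BPA10 (adjusted p = 0.663) and -0.07 ± 0.13 in BPA100. Pdx1 and Ins2 thus had the same order of groups, while 4 of the 8 beta-cell markers were higher in BPA100 than in BPA10. A link between Pdx1 and the Ins2 values was not tested. The lowest beta-cell marker was Glp1r, the receptor gene for glucagon-like peptide, at -0.31 ± 0.27 in BPA10 and -0.12 ± 0.27 in BPA100, and the highest in BPA100 was Ucn3, the urocortin 3 gene (0.47 ± 0.26).

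Receptors of the hormones (10 tested) had 3 higher and 7 lower means in BPA10 and 4 and 6 in BPA100, and 0 passed. Somatostatin receptor genes gave both BPA10 extremes, Sstr2 (0.27 ± 0.33) and Sstr4 (-1.26 ± 0.45, 10 and 19 in BPA10 against 44 and 27 in vehicle). In BPA100 the extremes belonged to the amylin receptor partners Ramp3 (0.43 ± 0.22) and Ramp1 (-0.53 ± 0.20). Other peptide hormone and neuropeptide genes (11 tested) had 6 higher and 5 lower means in BPA10 and 4 and 7 in BPA100, with 0 passing. Penk, the enkephalin precursor gene, was the highest in BPA10 (0.74 ± 0.39), and Gal, the galanin gene, the lowest in both comparisons (-0.37 ± 0.35 in BPA10, -1.23 ± 0.35 in BPA100, 57 and 29 against 101 and 93 in vehicle). Ucn3, in this list as well, was the highest in BPA100 (0.47 ± 0.26). Of the alpha-cell markers, 4 of 5 were higher in BPA10 and 5 of 5 in BPA100, led by Ttr (0.31 ± 0.12 and 0.22 ± 0.12). The lowest were Irx2 in BPA10 (-0.01 ± 0.19) and Slc38a5 in BPA100 (0.01 ± 0.16). Delta-cell markers had 3 of 5 higher in each. Pdx1, also in this list, was their highest in BPA10 (0.37 ± 0.13) and their lowest in BPA100 (-0.07 ± 0.13). F5 was their lowest in BPA10 (-0.31 ± 0.27) and their highest in BPA100 (0.25 ± 0.27). The median over all probe sets was 0.0008 in BPA10 and -0.0047 in BPA100. That of the brightest 1% was 0.17 and 0.14 on the BPA10 arrays, and 0.18 and 0.02 on the BPA100 arrays, relative to vehicle. The part of this array-wide difference in the values of the lists was not tested.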

How the data were processed

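RNA of islets from male mice, extracted on silica columns and amplified over 2 cycles, was hybridised to 6 single-colour arrays in 3 groups of 2. The authors deposited a linear signal intensity for every probe set, for which the submitters' processing notes name MAS5 with no version. From the values, each array had been scaled to a trimmed mean of 150 by the authors. Values were used as log2(signal + 1), and the 64 control probe sets and those below the 40th percentile of mean log2 value were left out of the tests. limma 3.58.1 in R 4.3.3 (lmFit, eBayes with an intensity trend) was fitted to all arrays with 3 group means (3 residual and 5.4 prior degrees of freedom), 2-sided. The script was tested on simulated data. The number of arrays limits the precision, with a median SE of 0.24 for 2 arrays against 2. Within-array ratios were tested with an exact permutation test.

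The rule for named genes takes all 6 members, each represented by its brightest probe set, the gene of each list with the highest and the lowest difference from vehicle, and the 3 genes with the most similar profile to each member; of the lists for duct, stellate, endothelial, macrophage and acinar cells only summary levels are printed, those of duct and endothelial cells in the closing section. Members and the 12 lists (166 entries) were chosen with earlier results of these data known. The alternatives were quantile normalization, median centring, a filter at the 60th percentile or none, a pseudocount of 16, no trend, only the groups compared, a replicate block, leaving out each array, only arrays with RNA of 1 mouse, averaging the probe sets of a gene and, added after seeing the data, scaling to the spike-in controls. Ins1 is not analysed here.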

Additional observations from a re-analysis of the deposited data

How the results depend on the processing

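In 17 alternatives for each pair of groups, 16 for both doses together (which use all groups, so no fit of only the groups compared exists) and 15 for the 3 groups at once, 0 of the 6 genes passed; the smallest adjusted p was 0.338. Over all 27022 tested probe sets, some settings with 2 arrays in each group did let probe sets pass in limma. Spike-in scaling gave 333 for BPA10 minus vehicle, 27 for BPA100 minus vehicle, 35 for BPA100 minus BPA10 and 46 for both doses. The replicate block gave 7 for BPA100 minus vehicle and 1 for both doses, and median centring 6 and 1. Only the groups compared gave 1 for BPA10 minus vehicle and 4 for BPA100 minus vehicle. A fit without 1 array takes the lone array of its group to vary like the others, so counts over all probe sets from such fits are left out. The labels do not say whether equal replicate numbers pair arrays, and the correlations of deviations between groups were 0.08, 0.194 and 0.199. With the replicate block, 0 members passed in limma, and the smallest adjusted p among them was 0.338 (Ppy, BPA10 minus vehicle). Quantile normalization moved the median over the members to -0.0593 (BPA10 minus vehicle), -0.0484 (BPA100 minus vehicle), 0.014 (BPA100 minus BPA10) and -0.0456 (both doses minus vehicle), and spike-in scaling to -0.0259, 0.0664, 0.1109 and 0.0189. Leaving out 1 array gave medians of 0.2706 to 0.3949, 0.0248 to 0.3099, -0.3128 to -0.024 and 0.1812 to 0.3377 in the same order. Quantile normalization turned Iapp (-0.0989), Gcg (-0.0196), Sst (-0.1293), Ppy (-0.0067) and Pyy (-0.1262) for BPA10 minus vehicle. It also turned Iapp (-0.0119), Gcg (-0.0786), Ppy (-0.0773) and Pyy (-0.0195) for BPA100 minus vehicle, Iapp (0.0869), Sst (0.1865) and Pyy (0.1067) for BPA100 minus BPA10, and Iapp (-0.0554), Gcg (-0.0491), Sst (-0.036), Ppy (-0.042) and Pyy (-0.0728) for both doses. Spike-in scaling turned Iapp (-0.0657), Sst (-0.1096) and Pyy (-0.1194) for BPA10 minus vehicle, Iapp (0.1657), Gcg (0.0562), Sst (0.2605), Ppy (0.0131) and Pyy (0.1822) for BPA100 minus BPA10, and Ins2 (-0.0552) and Pyy (-0.0283) for both doses. The mean of its probe sets turned Iapp to -0.1195 for BPA10 minus vehicle and 0.2857 for BPA100 minus BPA10, and median centring turned Sst to 0.0111 there. Leaving out 1 array, BPA100 minus BPA10 ranged from -0.2805 to 0.0871 for Iapp, -0.0862 to 0.0823 for Sst and -0.1798 to 0.0194 for Pyy, each positive without BPA100 replicate 2 and Sst also without BPA10 replicate 1 (0.0117). Ins2 for BPA100 minus vehicle ranged from -0.405 to 0.2218, and the Ppy to Ins2 ratio for BPA10 minus vehicle from -0.1638 to 0.0855. In limma fits of BPA10 minus vehicle, 3 members had an unadjusted p under 0.05 in the main fit (1914 of 27022 probe sets). That count was 0 with no trend (1857), quantile normalization (1971) and spike-in scaling (4280), and 1 with median centring (1701). It was also 1 with no filter (2917 of 45037), and 4 with the replicate block (2710) and only the groups compared (1878). The other settings with 2 arrays in each group gave 3. The cause was not tested.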

Other observations

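Further lists of cells that an islet preparation can hold were summed on each array. Epcam and keratin genes and the other duct-cell markers (7 tested, 0 at 0) summed to 6844 to 7845 in vehicle, 6986 to 7818 in BPA10, and 5811 to 6372 in BPA100, with 7 of 7 genes lower in BPA100. Endothelial markers (9 tested, 0 at 0) summed to 3814 to 4229 in vehicle, 3924 to 4029 in BPA10, and 4030 to 4090 in BPA100.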
